A study of Homo sapiens with 2 samples.

Results

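Genes for the enzymes that add methyl groups to histone lysines, or remove them, were examined for lysine lactylation peaks in CAL27, a human cell line from an oral squamous cell carcinoma. The members were the protein-coding genes on chromosomes 1 to 22 and X whose symbols start with KMT2, KMT5, KDM, SETD, SUV39H, EHMT, NSD or PRDM, together with EZH1, EZH2, EED, SUZ12, DOT1L, ASH1L, SMYD2, SMYD3 and JMJD6. The rule took in 71 of 19974 protein-coding genes. It includes NSDHL, a sterol biosynthesis gene that shares only the prefix, and SETDB2-PHF11, a readthrough gene with the same start as SETDB2. Lactylation was mapped by CUT&Tag, in which the transposase pA-Tn5 is led by an antibody to its target and tags the DNA around it, and the pan-lactyllysine antibody used binds lactylated lysine in any protein. There were 2 libraries, both from thawed cells, 1 of untreated CAL27 (15696147 tags, 43680 peak regions) and 1 of CAL27 given 10 mM lactate for 24 hours (15120031 tags, 50352 regions). A control made without the antibody was not used here, and signal from the antibody cannot be told apart from cutting at open chromatin.

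The headers disagree with the sample labels, since each list names the other sample as its run, its input and the stem of its peak names. Libraries are therefore called untreated-labelled and lactate-labelled, pairs of values are given in that order, and an exchange of the lists would reverse every direction given. With 1 library a group no difference has a replicate check and no test was run. Intervals are 95% exact intervals and cover counting error only. Peak calls do not measure expression. Of 8 squamous epithelial marker genes 3 and 4 held a peak at a gene end (TP63, KRT14, DSG3 and COL17A1 in neither library). Of 8 markers of other cell types 4 did in each library (COL1A2, HBB, CD3E and SYP). Over all protein-coding genes the shares were 43.7% and 49.7%. Inside the gene, away from its ends, 4 squamous markers held a peak in each library (TP63, DSG3, COL17A1 and PKP1). Of the other markers 3 and 4 did, beside 36.2% and 39.2% of all genes.

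Methylation of histone H3 at K4 and K36 is typical of active genes, whereas methylation of H3 at K9 and K27 and of H4 at K20 is tied to repression or compaction. SET domain proteins write most of these marks, DOT1L writes H3K79 methylation without such a domain, and the LSD and Jumonji demethylases remove them. Lactylation is another modification of histone lysines, fed by lactate. KMT2D, KMT2C, NSD1 and KDM6A are recurrently mutated in squamous carcinomas of the head and neck.

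Most methyltransferase genes of the group carried a peak at a gene end, and most PRDM genes did not. A gene was called marked where a peak region overlapped 1 kb to either side of either gene end. In the untreated-labelled library 38 of 71 members were marked (53.5%, interval 41.3 to 65.5), beside 43.7% of all protein-coding genes. In the lactate-labelled library 47 were marked (66.2%, interval 54.0 to 77.0), beside 49.7%. In both libraries 35 were marked, 49.3% beside 39.9% of all genes. In neither were 21 members, 29.6% beside 46.6%. Shares were lower among demethylase and PRDM members. In the untreated-labelled library their intervals overlapped that of the methyltransferase members outside the PRDM family. In the lactate-labelled library the demethylase interval did and the PRDM interval did not. The 35 methyltransferase members outside the PRDM family include PRC2 subunits and the readthrough gene. Of these, 25 and 30 were marked (71.4% and 85.7%). The intervals, 53.7 to 85.4 and 69.7 to 95.2, do not include the shares of all genes. Of 20 demethylase members, JMJD6 included, 8 and 11 were marked (40% and 55%), and of 15 PRDM members 4 and 5 (26.7% and 33.3%). The demethylase and PRDM intervals include the share of all genes in both libraries. They were 19.1 to 63.9 and 7.79 to 55.1 in the untreated-labelled library, and 31.5 to 76.9 and 11.8 to 61.6 in the lactate-labelled library. Differences between the families were not tested.

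**Figure D1:**
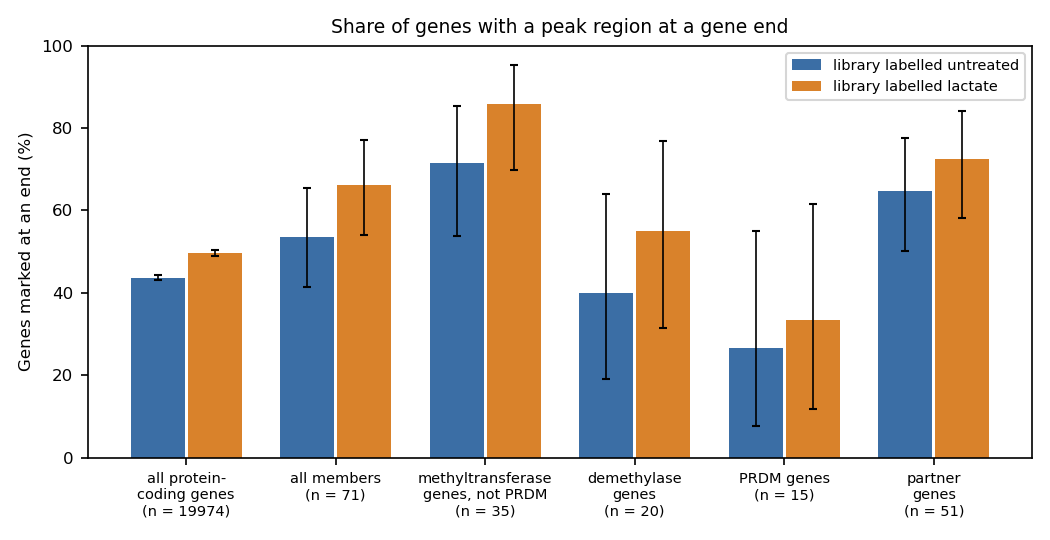
Percentage of genes with a peak region within 1 kb of a gene end in each library, for all protein-coding genes, all members, 3 groups of members and a list of partner genes. Bars are shares and lines are 95% exact intervals (counting error only). Methyltransferase genes outside the PRDM family stand at 71.4% and 85.7%, PRDM genes at 26.7% and 33.3%.

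In the lactate-labelled library alone 12 members were marked (16.9%, interval 9.05 to 27.7, which includes the 9.73% of all genes). Among them were the methyltransferase genes KMT2C, SETD1A, SMYD3, NSD1, SETD2 and DOT1L, the demethylase genes KDM4D, KDM5A, KDM6B and KDM7A, and PRDM12. In the untreated-labelled library alone there were 3, KDM1A, SUZ12 and PRDM8, 4.23% beside 3.75%. The ratio of these counts, which rests on only 3 genes in the untreated-labelled library, was 4, against 2.59 over all genes. It fell to 1, against 1.26 over all genes, when lists of equal length were compared. With the 21840 regions of highest fold enrichment from each library, 28 members were marked in each library (39.4%, beside 27.4% and 28.9% of all genes) and 21 in both (29.6%, beside 21.6%). Then 7 members were marked in each library alone (9.86%), beside 7.31% of all genes in the lactate-labelled and 5.82% in the untreated-labelled library. At a fold enrichment of 5 or more, 23 and 30 members were marked (32.4% and 42.3%, beside 23.4% and 30.4% of all genes). At that threshold 19 were marked in both (26.8%, beside 19.8%). There were 11 in the lactate-labelled library alone (15.5%, beside 10.6%) and 4 in the untreated-labelled library alone (5.63%, beside 3.6%). With equal lists SETD2, KDM4D and PRDM12 stayed in the lactate-labelled library alone and KDM1A and SUZ12 in the untreated-labelled library alone. The other members alone in a library with equal lists were marked in both with all peaks, EZH2, KMT2A, KMT5A and SETD7 for the lactate-labelled and KMT2D, NSD3, PRDM10, SMYD2 and SUV39H1 for the untreated-labelled library.

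The promoter windows of members marked in 1 library alone are shown first, because the gene-end marks of these members were in 1 list alone. They run from 250 bases before to 50 after an annotated start (RefSeq, GRCh38.p14, the build of the peaks being hg38), 5′ to 3′ on the gene's strand. Capitals mark GGGCGG, the GC box core bound by SP factors, and CCAAT, the core bound by NF-Y, on either strand. The 8 of highest fold enrichment whose region overlapped the window are given. KDM4D, chr11:94973459-94973758, plus strand, held its peak in the lactate-labelled library, and its window has 3 GC boxes and 1 CCAAT.
KDM4D: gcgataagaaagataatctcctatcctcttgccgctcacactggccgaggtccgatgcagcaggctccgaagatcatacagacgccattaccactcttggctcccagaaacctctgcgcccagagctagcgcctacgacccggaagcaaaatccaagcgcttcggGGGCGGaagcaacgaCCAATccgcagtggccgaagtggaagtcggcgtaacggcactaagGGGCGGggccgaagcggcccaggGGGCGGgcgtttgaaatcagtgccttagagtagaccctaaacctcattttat
KDM1A, chr1:23019218-23019517, plus strand, held its peak in the untreated-labelled library.
KDM1A: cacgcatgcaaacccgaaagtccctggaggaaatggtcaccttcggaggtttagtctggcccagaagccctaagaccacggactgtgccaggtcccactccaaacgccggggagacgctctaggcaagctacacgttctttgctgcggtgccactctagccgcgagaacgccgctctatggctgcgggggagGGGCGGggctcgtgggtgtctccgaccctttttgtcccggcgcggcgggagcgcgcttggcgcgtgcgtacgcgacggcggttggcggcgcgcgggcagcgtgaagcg
SUZ12, chr17:31936757-31937056, plus strand, lay whole within its untreated-labelled region, and has 3 GC boxes and 1 CCAAT.
SUZ12: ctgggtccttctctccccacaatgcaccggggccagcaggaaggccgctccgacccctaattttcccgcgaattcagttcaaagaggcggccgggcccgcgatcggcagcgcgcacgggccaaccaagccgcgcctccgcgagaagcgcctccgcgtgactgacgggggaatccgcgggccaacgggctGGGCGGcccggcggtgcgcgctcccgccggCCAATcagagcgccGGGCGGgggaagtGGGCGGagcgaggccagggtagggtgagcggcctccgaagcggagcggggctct
The other 5 windows belong to regions of the lactate-labelled library. KDM7A, chr7:140176934-140177233, minus strand, is the richest in CpG of the 8, with 56.
KDM7A: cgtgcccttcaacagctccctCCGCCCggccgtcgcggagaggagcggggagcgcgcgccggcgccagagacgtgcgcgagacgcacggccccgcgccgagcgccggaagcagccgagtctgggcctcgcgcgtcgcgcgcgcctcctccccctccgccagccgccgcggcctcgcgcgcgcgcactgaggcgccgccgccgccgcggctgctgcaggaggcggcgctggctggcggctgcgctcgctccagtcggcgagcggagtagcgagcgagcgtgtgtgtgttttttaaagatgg
KDM5A, chr12:389271-389570, minus strand, is the poorest in CpG of the 8, with 20.
KDM5A: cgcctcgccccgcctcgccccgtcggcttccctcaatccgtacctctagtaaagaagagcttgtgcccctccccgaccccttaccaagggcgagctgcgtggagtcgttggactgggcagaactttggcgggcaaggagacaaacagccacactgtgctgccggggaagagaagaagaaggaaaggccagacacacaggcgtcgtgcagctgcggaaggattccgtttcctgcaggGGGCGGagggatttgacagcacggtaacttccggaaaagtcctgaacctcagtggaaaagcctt
SETD1A, chr16:30957504-30957803, plus strand, has 4 GC boxes.
SETD1A: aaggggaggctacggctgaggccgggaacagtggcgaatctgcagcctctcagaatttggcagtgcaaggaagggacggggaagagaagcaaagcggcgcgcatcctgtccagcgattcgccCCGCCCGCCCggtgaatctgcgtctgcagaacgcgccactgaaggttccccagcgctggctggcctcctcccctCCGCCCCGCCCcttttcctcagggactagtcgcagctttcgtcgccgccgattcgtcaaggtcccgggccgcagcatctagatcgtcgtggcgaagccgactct
KDM6B, chr17:7833967-7834266, plus strand, has 5.
KDM6B: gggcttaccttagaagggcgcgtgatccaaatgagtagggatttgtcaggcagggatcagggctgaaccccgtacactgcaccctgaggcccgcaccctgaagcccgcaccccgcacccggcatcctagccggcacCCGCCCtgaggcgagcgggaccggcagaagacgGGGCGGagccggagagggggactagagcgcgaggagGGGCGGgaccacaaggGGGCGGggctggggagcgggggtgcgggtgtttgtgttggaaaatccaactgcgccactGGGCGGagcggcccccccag
SETD2, chr3:47164064-47164363, minus strand, is the window of a start 727 bp inside the outer gene end.
SETD2: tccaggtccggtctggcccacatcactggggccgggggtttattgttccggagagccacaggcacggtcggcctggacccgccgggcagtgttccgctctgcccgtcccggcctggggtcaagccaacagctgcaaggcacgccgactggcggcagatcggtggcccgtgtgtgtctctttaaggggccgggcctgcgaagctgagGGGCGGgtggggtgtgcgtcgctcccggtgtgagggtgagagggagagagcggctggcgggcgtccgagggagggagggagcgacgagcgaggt

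For comparison stand 3 members marked in both libraries, chosen after their values were seen: SETDB2, with the highest fold enrichment of all members, and ASH1L and EZH2, with the largest pileup ratios. SETDB2 lies at chr13:49444024-49444323 on the plus strand.
SETDB2: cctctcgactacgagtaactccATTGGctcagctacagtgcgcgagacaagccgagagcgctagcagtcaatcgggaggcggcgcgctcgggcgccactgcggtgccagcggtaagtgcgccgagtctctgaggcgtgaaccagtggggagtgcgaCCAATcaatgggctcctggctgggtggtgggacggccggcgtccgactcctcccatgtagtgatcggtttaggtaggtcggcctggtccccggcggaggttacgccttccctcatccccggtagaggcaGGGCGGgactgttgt
ASH1L lies at chr1:155562754-155563053 on the minus strand, 399 bp inside the outer gene end.
ASH1L: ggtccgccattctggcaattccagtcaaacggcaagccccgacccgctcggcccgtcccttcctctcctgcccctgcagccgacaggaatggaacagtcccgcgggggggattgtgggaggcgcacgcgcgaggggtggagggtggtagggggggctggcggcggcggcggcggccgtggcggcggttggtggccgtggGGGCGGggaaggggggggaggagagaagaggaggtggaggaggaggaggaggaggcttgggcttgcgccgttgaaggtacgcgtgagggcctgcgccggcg
EZH2 lies at chr7:148884242-148884541 on the minus strand, and has 4 GC boxes and 4 CCAAT.
EZH2: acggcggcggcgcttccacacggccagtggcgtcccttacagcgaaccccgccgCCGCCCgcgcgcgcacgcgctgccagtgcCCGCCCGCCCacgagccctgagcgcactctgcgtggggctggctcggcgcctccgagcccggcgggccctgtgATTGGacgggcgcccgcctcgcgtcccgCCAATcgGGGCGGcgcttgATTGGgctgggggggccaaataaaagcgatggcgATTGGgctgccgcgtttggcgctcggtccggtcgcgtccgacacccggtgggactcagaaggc

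Member promoters were somewhat richer in GC than the promoters of all protein-coding genes. Of the 71 members 62 matched the promoter table, and 9, among them PRDM16, PRDM6, NSD3, PRDM14, KDM4E, SETD1B, JMJD6 and DOT1L, did not. For each gene the annotated start nearest its outer end was taken. Median GC was 66.5% in 62 members and 62.7% in 15813 promoters, and the median number of CpG was 29 and 22. GGGCGG occurred in 45 members (72.6% beside 58.3% of all), CCAAT in 26 (41.9% beside 36.4%) and TATAAA, the TATA box core, in 1, PRDM11 (1.61% beside 9.75%), each searched on both strands. GC moved with the mark over all genes: below 50% GC 14.1% and 16.04% of starts were marked, and from 60% to below 70% 55.7% and 62.4%. In that latter class 17 and 19 of 24 members were marked (70.8% and 79.2%), and at 70% or more 14 and 17 of 23 (60.9% and 73.9%, beside 49.4% and 58.5%). The part of GC in the members' counts was not tested further.

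The mark lay at gene starts. Of 62 members with a known strand, 35 and 41 were marked at the outermost start (56.5% and 66.1%, beside 43.3% and 49.1% of 15813 genes). At the far end 3 and 4 were (4.84% and 6.45%, beside 5.7% and 7.03%). KMT2D and SETDB2 held a far-end region in both libraries, EHMT1 in the untreated-labelled library, and SETD1A and PRDM12 in the lactate-labelled library. The summit of highest fold lay within 250 bp of that start in 19 of 35 members and 20 of 41. Its median position was -112 bp and -92 bp (negative positions are upstream), and 25 and 29 summits lay upstream.

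**Figure D2:**
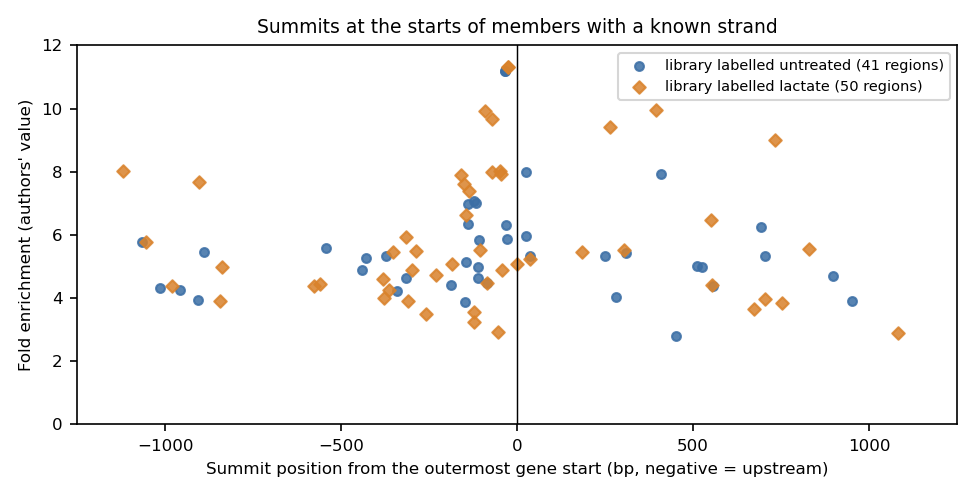
Position of each gene-start region's summit from the outermost annotated start (x axis, bp, negative is upstream) against the authors' fold enrichment (y axis), for members with a known strand. Points are regions, 1 colour a library. Summits gather just upstream of the start, with medians of -112 bp and -92 bp for the strongest region of each member, and the highest points are those of SETDB2.

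Of 10 genes listed as H3K4 methyltransferases, KMT2E included, 5 were marked in the untreated-labelled and 8 in the lactate-labelled library. The intervals, 18.7 to 81.3 and 44.4 to 97.5, include the 43.7% and 49.7% of all genes. KMT2A, the MLL1 gene, held a region at its start in both, with a pileup (tags over the summit) of 11 tags at chr11:118436139-118436438 and of 14 tags at chr11:118436028-118436512. KMT2E had the highest pileup of the group at a gene end, 56 tags at a summit at -1120 bp in the lactate-labelled library, in a region that overlapped an untreated-labelled one outside the window. Its region nearer the start had 33 tags in each library. KMT2D, which writes H3K4 methylation at enhancers, had a start region of 22 tags in the untreated-labelled library alone. It counted as marked in both through its far end, where 14 tags in each library lay at a region shared with an end of PRKAG1. KMT2C, its close relative, had 13 tags at chr7:152436264-152436805 in the lactate-labelled library. Inside KMT2C lay 3 regions in the untreated-labelled library and 0 in the other. KMT2C has near-identical copies elsewhere in the genome, so its reads are uncertain. SETD1A, the catalytic subunit of a COMPASS complex, carried 3 end regions of 20 tags each in the lactate-labelled library and none in the other list, where the nearest region lay 6569 bp away. SMYD3, a SET and MYND domain methyltransferase gene, had a region of 14 tags and a fold enrichment of 2.92, over a local background of 4.14 tags, at its start in the lactate-labelled library. In that list 97.3% of regions had a higher fold, so this mark stands near the caller's limit. PRDM9, which directs meiotic recombination, and SETD1B were marked in neither. SETD1B held 3 regions inside it in the untreated-labelled and 4 in the lactate-labelled library, the first of them at chr12:121791819-121792301 and chr12:121791819-121792326.

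**Figure D3:**
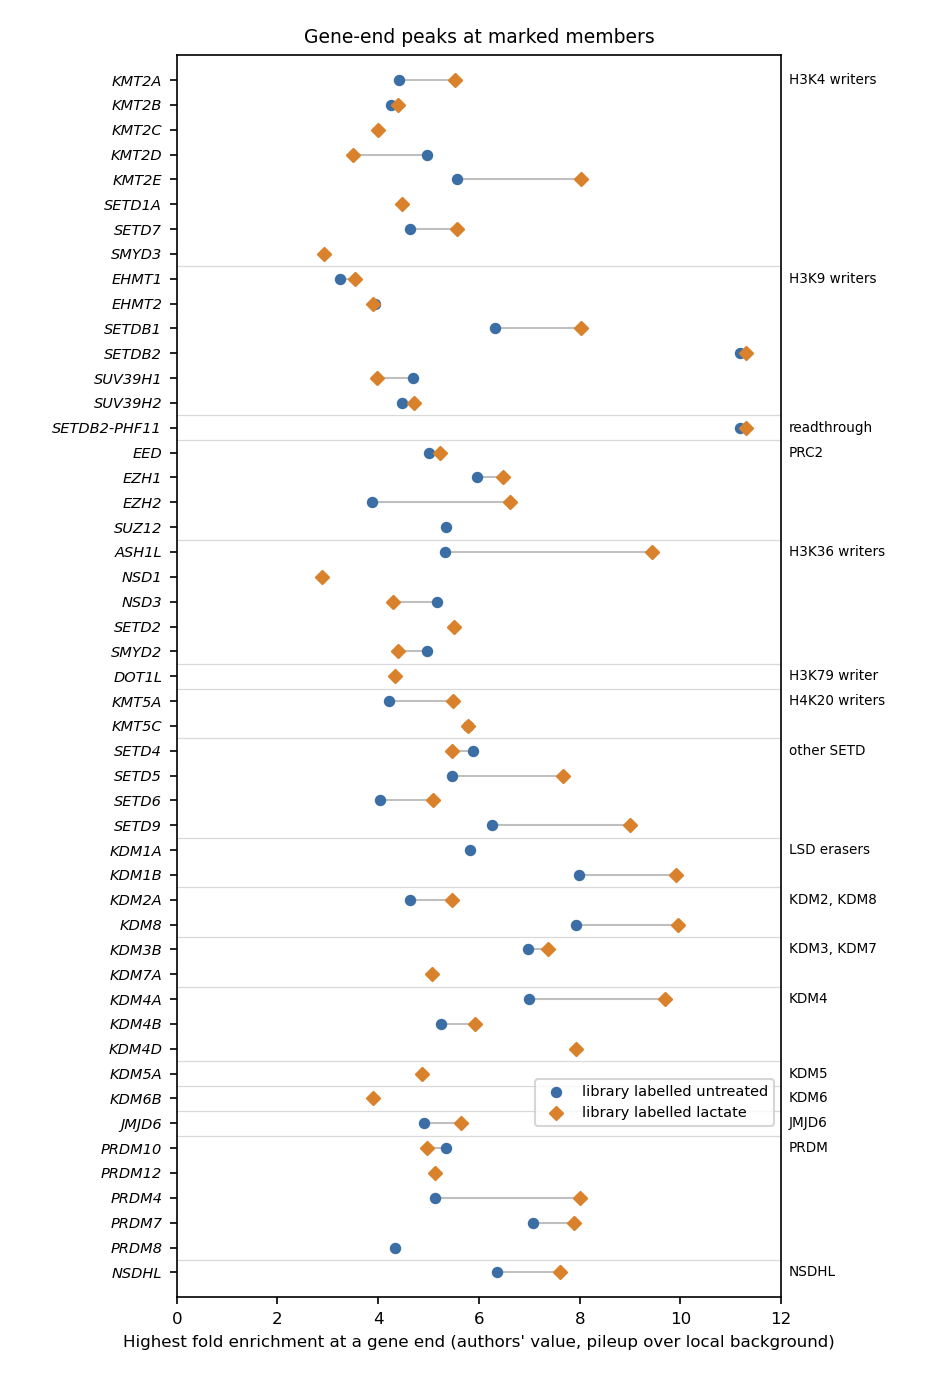
Highest fold enrichment (x axis, the authors' value for a peak over its local background) at a gene end of members marked in a library, grouped by role. Circles are the untreated-labelled and diamonds the lactate-labelled library, with a line between them where a gene was marked in both. Fold enrichment ranks peaks within 1 list. SETDB2 stands highest in each library, at 11.2 and 11.3. Rows with 1 symbol are members marked in 1 library alone. Exceptions are KMT5C, whose symbols coincide at 5.78, and EHMT2, whose symbols nearly coincide at 3.94 and 3.90.

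Of 7 H3K9 methyltransferase genes the same 6 were marked in each library. The interval, 42.1 to 99.6 in each, includes the 43.7% and 49.7% of all genes. SETDB2 had the strongest end region of all members, 35 tags (fold enrichment 11.2) and 37 tags (11.3), at chr13:49443965-49444824 and chr13:49443883-49444941. That region also lay at an end of CAB39L. A weaker far-end region of SETDB2, with 16 and 19 tags, also lay at an end of PHF11. SETDB1, which silences retroelements with the KAP1 complex, had 23 and 30 tags with summits at -31 and -50 bp. SUV39H1 and SUV39H2, which write H3K9 trimethylation in heterochromatin, had among the lowest counts of the shared regions. SUV39H1 had 11 and 9 tags, and SUV39H2 had 8 and 9. SUV39H1 also held a stronger region inside it in both libraries, of 22 and 24 tags. EHMT1 and EHMT2 encode the partners GLP and G9a. EHMT2 had 15 tags in each library at a region with summits at -908 and -845 bp that also lay at ends of C2 and ZBTB12. EHMT1 was marked in both by different sites, 9 tags at its far end in the untreated-labelled and 14 tags at its start in the lactate-labelled library. It is the 1 member marked in both without an overlapping pair of regions. PRDM2 was marked in neither.

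Of PRC2, the H3K27 methyltransferase complex, 4 genes are members, and others stand on the partner list. All 4 members were marked in the untreated-labelled library and 3 in the lactate-labelled library. With so few genes the intervals, 39.8 to 100 and 19.4 to 99.4, include the 43.7% and 49.7% of all genes. EZH2, the catalytic subunit gene, had 9 tags at chr7:148884351-148884550 and 19 tags at chr7:148884310-148884821. EZH1, its paralog, had 17 and 21 tags, and EED, the subunit that binds trimethylated H3K27, had 19 and 24. SUZ12, the scaffold subunit gene, had 13 tags at chr17:31936673-31937161 in the untreated-labelled library, and the nearest lactate-labelled region lay 34639 bp away.

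Among 6 H3K36 methyltransferase genes 3 and 5 were marked. The intervals, 11.8 to 88.2 and 35.9 to 99.6, include the 43.7% and 49.7% of all genes. ASH1L had 15 tags at chr1:155562691-155563334 and 32 tags at chr1:155562726-155563329, a region shared with an end of MSTO1. SETD2, which writes H3K36 trimethylation during elongation, had regions of 7 and 11 tags in the lactate-labelled library, and the nearest untreated-labelled region lay 70594 bp away. NSD1 had a region of 12 tags with its summit 1081 bp inside its outer start and at -136 bp from another annotated start. Its fold enrichment was 2.88, with 97.7% of regions in that list higher. NSD3 was marked in both at the lower end of the gene, shared with PLPP5, with 11 and 8 tags, and SMYD2 had 17 and 15 tags at an overlapping region. NSD2 was marked in neither, but inside it a region at chr4:1907879-1908180 (18 tags) recurred at chr4:1907786-1908417 (25 tags). DOT1L, the H3K79 methyltransferase gene, had 18 tags at its lower end in the lactate-labelled library alone, shared with AP3D1. Inside DOT1L the region of highest pileup had 27 and 35 tags in the untreated-labelled and the lactate-labelled library.

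Of the 3 H4K20 methyltransferase genes, KMT5A and KMT5C were marked in both and KMT5B in neither. KMT5C, which writes the trimethyl form, had 39 and 53 tags at its strongest region, the highest counts among the 34 members with overlapping end regions that were compared by pileup, with summits at -1067 and -1055 bp. KMT5A, which writes the monomethyl form, had 16 and 23. Among the other SETD genes, SETD4, SETD5, SETD6 and SETD9 were marked in both. Of all genes 39.9% were marked in both. The intervals of these families, 9.43 to 99.2 for H4K20 and 28.4 to 99.5 for other SETD genes, include that share. SETD5 had 18 and 32 tags, and SETD9 had 16 and 26. SETD3, an actin histidine methyltransferase gene, had no end region, but a region at an internal start of 15 and 16 tags. NSDHL, the sterol gene, had 15 and 18 tags at a region shared with CETN2.

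The flavin-dependent LSD demethylase genes differed from each other. KDM1A, the LSD1 gene, had a region of 16 tags at chr1:23019262-23019469 in the untreated-labelled library, where 23.4% of regions had a higher fold enrichment. The lactate-labelled list had no region at this end, and its nearest lay 1351 bp away. KDM1B, the LSD2 gene, was marked in both, with 34 and 48 tags at a region shared with the facing gene TPMT.

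Among the Jumonji demethylase genes, KDM8 (7.92 and 9.96) and KDM4A (7 and 9.68) had the highest fold enrichment at a gene end in each library. KDM4A had 34 and 48 tags at its start, over regions of 339 bp and 1146 bp, the former being 1 of a pair in the untreated-labelled library that the longer one spans. KDM4B had 30 and 42. KDM4D, on chromosome 11, had 18 tags at chr11:94973528-94973838 in the lactate-labelled library alone. Its fold enrichment of 7.92 was the highest of the 15 members marked in 1 library, with 7.9% of regions in its list higher, and the region also lay at an end of CWC15. The neighbouring KDM4E and KDM4F had no region at an end or inside, and these copies are alike in sequence, so their reads are uncertain. KDM8 had 31 and 44 tags with summits 409 and 396 bp downstream of the start. KDM2A, an H3K36 demethylase gene, had 22 and 27 tags at its outer start, and inside it 36 and 42 tags at a second annotated start. KDM3B, an H3K9 demethylase gene, had 24 and 26. KDM7A had 14 tags in the lactate-labelled library alone, 1253 bp from the nearest region of the other list. JMJD6, a lysyl hydroxylase gene, had 15 and 21 tags at a region shared with METTL23.

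The KDM5 and KDM6 families, which remove H3K4 and H3K27 methylation, have 5 members. None was marked in the untreated-labelled library and 2 were in the lactate-labelled library, beside 43.7% and 49.7% of all genes, and the intervals of families this small (0 to 70.8 and 0.840 to 90.6 for KDM5) include those shares. KDM5A had 11 tags at a region shared with CCDC77. KDM6B had 28 tags at its start, in a region shared with an end of DNAH2, over a local background of 6.46 tags, with 77.7% of regions in that list higher in fold enrichment. Inside KDM6B lay 4 regions in the untreated-labelled and 3 in the lactate-labelled library, which is 21.5 and 16.1 per 100 kb in a gene of 20.6 kb. KDM6A, the UTX gene, KDM5B and KDM5C had no end region. Inside KDM6A a region of 15 and 23 tags recurred 133352 and 132982 bp from the start. KDM5C had a recurring inner region of 13 and 21 tags, and KDM5B an inner region in the lactate-labelled library alone.

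PRDM genes, most of which encode zinc finger regulators with restricted expression, were marked in 4 and 5 of 15. PRDM4, PRDM7 and PRDM10 were marked in both, PRDM4 with 15 and 27 tags, PRDM7 with 32 and 43 and PRDM10 with 13 in each. PRDM7 is a near-identical copy of PRDM9, so its reads are uncertain. PRDM8 had 8 tags at -1015 bp in the untreated-labelled library alone. PRDM12 had 18 tags at its far end in the lactate-labelled library alone. PRDM9, PRDM13 and PRDM14 held no region at an end or inside in either library. At this depth the lowest pileup called in either list was 6 tags, so weaker signal was not detectable.

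Several members without an outer mark carried one at an internal start. Of the 21 members marked in neither library, 16 held regions inside. In 7 of these, KDM2B, KDM3A, KDM4C, PRDM1, PRDM2, PRDM11 and SETD3, a region's summit lay within 1 kb of an annotated start. The matching shares over all genes marked in neither are not given here. Long genes hold more regions, and these 21 members have a median length of 83.9 kb, against 18.9 kb over all genes marked in neither. KDM3A had 29 and 30 tags at chr2:86440712-86441470 and chr2:86440725-86441541. KDM4C had 27 and 36 with summits 36784 and 36801 bp from the outer start, at -326 and -309 bp from an internal one. PRDM11 had 20 and 23 tags with summits 1 and 6 bp past its internal start, and PRDM1, the BLIMP1 gene, regions at a pair of internal starts in both libraries. Those of PRDM2 and KDM2B were in the lactate-labelled library alone. With any annotated start counted, 40 and 48 of 62 members were marked (64.5% and 77.4%, beside 46.2% and 52.1% of all genes). PRDM6, PRDM16, PRDM15, KMT5B, NSD2, SETD1B, KDM5B, KDM5C and KDM6A are the other 9 with inner regions, and for PRDM6, PRDM16 and SETD1B no annotated starts were used here.

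Where a member was marked in both at overlapping regions, pileup scaled to library size was mostly somewhat higher in the lactate-labelled library, as over all genes. For 34 members (SETDB2 and its readthrough gene share 1 region) the median ratio of depth-scaled pileup, that is tags at the summit over all tags of the library, lactate-labelled over untreated-labelled, was 1.30. Of these, 31 had a ratio above 1, among them EHMT2, KMT2E, KMT2D, SETD7 and PRDM10, with equal tag counts at the compared regions. Their ratio of 1.04 comes from library size alone. Over 7718 genes the median was 1.23 and 76.5% were above 1. ASH1L had the highest ratio (2.21, interval 1.17 to 4.40), followed by EZH2 (2.19, interval 0.945 to 5.50), PRDM4 (1.87, interval 0.959 to 3.78) and SETD5 (1.85, interval 1.01 to 3.49). Of the 34 intervals 2, those of ASH1L and SETD5, lay above 1, and both included 1.23. The lowest ratios were those of NSD3 (0.755, interval 0.264 to 2.06), SUV39H1 (0.849) and SMYD2 (0.916). Counts of this size could not separate any member from the ratio of all genes.

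**Figure D4:**
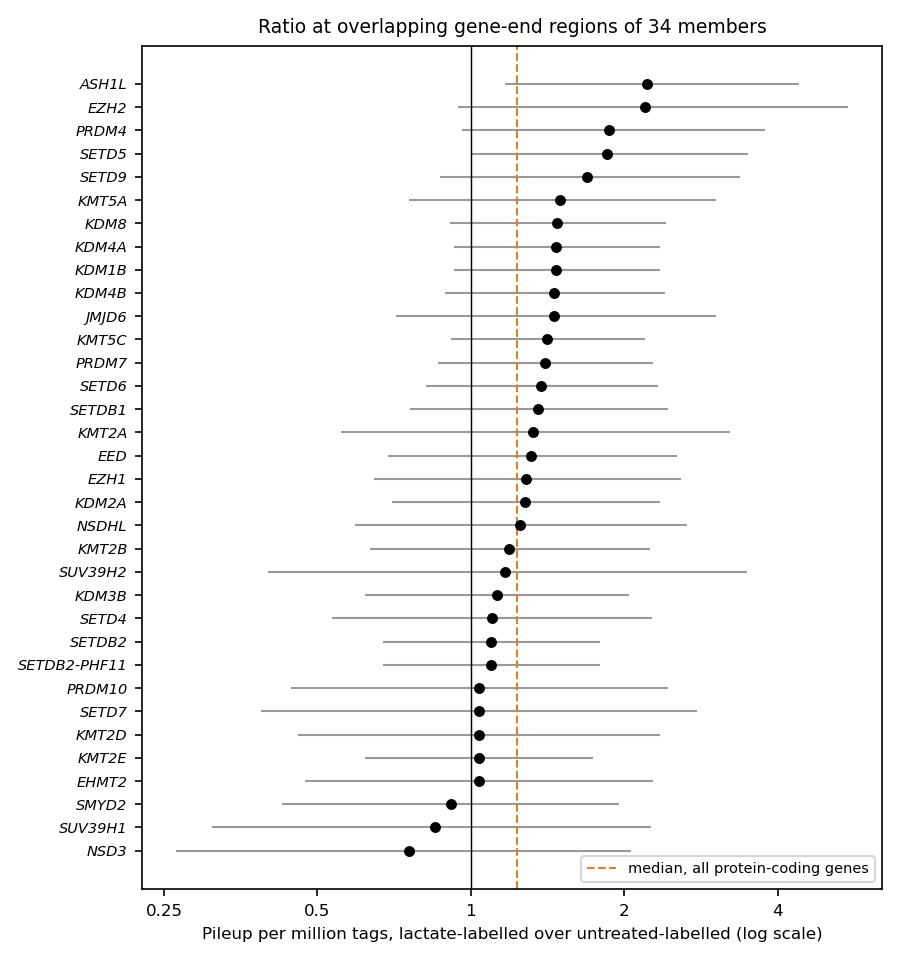
Ratio of depth-scaled pileup, lactate-labelled over untreated-labelled (x axis, log scale), at overlapping gene-end regions of 34 members. Points are ratios, lines are 95% exact intervals for counting error, the solid line is 1 and the dashed line is the median of 1.23 over 7718 genes. Nearly all intervals span 1, and all include the dashed line.

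Member regions recurred between the libraries at a rate near that of other gene-end regions. Of 45 untreated-labelled regions at member ends 39 overlapped a region of the other list (86.7%, interval 73.2 to 94.9, beside 85.4% of 8750 gene-end regions), and of 58 lactate-labelled regions 37 did (63.8%, interval 50.1 to 76.0, beside 70.6% of 10422). None of the 15 members marked in 1 library alone had an end region that overlapped one of the other list. The same held for most genes, since 9.73% of all genes were marked in the lactate-labelled library alone and 9.5% both were so marked and lacked such an overlap. In the untreated-labelled library these shares were 3.75% and 3.58%. Of the 12 in the lactate-labelled library, 6 also had no untreated-labelled region within 5 kb of a gene end, among them SMYD3, SETD2, PRDM12, KDM4D and SETD1A. That is 8.45% of the members, near the 6.53% of all genes. Median fold enrichment at member ends was 5.13 and 5.11, beside 4.86 and 5.04 over all gene-end regions. In 16 of the 50 marked members a region also lay at an end of another protein-coding gene, so it cannot be assigned to the member alone. The matching share over all marked genes is not given here.

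Inside the genes, away from their ends, members held about as many regions per length as protein-coding genes as a whole, or somewhat fewer. A region was counted as inside where its summit lay over 1 kb from both ends. In the untreated-labelled library 33 members held 1 or more (46.5%, beside 36.2% of all genes) and in the lactate-labelled library 36 (50.7%, beside 39.2%). Of the members 30 held one in both (42.3%, beside 31.5%) and 32 in neither (45.1%, beside 56%). In the lactate-labelled library alone 6 did (8.45%, beside 7.75%), and in the untreated-labelled library alone 3 (4.23%, beside 4.75%). Members are long, with a median of 63.2 kb against 24.2 kb. Per 100 kb they held 1.29 and 1.41 regions, and all protein-coding genes 1.41 and 1.65. At a fold enrichment of 5 or more the untreated-labelled densities were 0.502 and 0.505, and the lactate-labelled ones 0.562 and 0.727. With all peaks, the 13 members below 20 kb held 1.39 per 100 kb in each library, beside 2.34 and 2.86 over all genes of that length. In the class of 20 to 50 kb the 17 members held 2.38 in each library, beside 1.88 and 2.27. In the class of 50 to 100 kb the 19 members held 0.902 and 1.43 per 100 kb, and all genes of that length 1.73 and 2.04. From 100 to 200 kb the 14 members held 1.27 and 1.49, beside 1.55 and 1.83. At 200 kb or more the 8 members held 1.29 and 1.18 beside 1.02 and 1.17. SMYD3, the longest member at 757.9 kb, held the most regions, 15 and 13. PRDM16 held 8 and 6, KDM4C 6 in each library and EHMT1 2 and 6, none of the EHMT1 regions overlapping between the lists. With 4 regions followed PRDM1, PRDM11, KDM2A, KDM2B and KDM6B in the untreated-labelled library, and KDM2A, KDM4B and SETD1B in the lactate-labelled library. The highest fold enrichment inside a member was at PRDM11, 8.20 and 10.4, at chr11:45127804-45128449 and chr11:45127671-45128438. Of 85 and 93 regions inside members, 50 in each library overlapped one of the other list (58.8% and 53.8%, beside 68.8% and 58.2% over all genes).

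**Figure D5:**
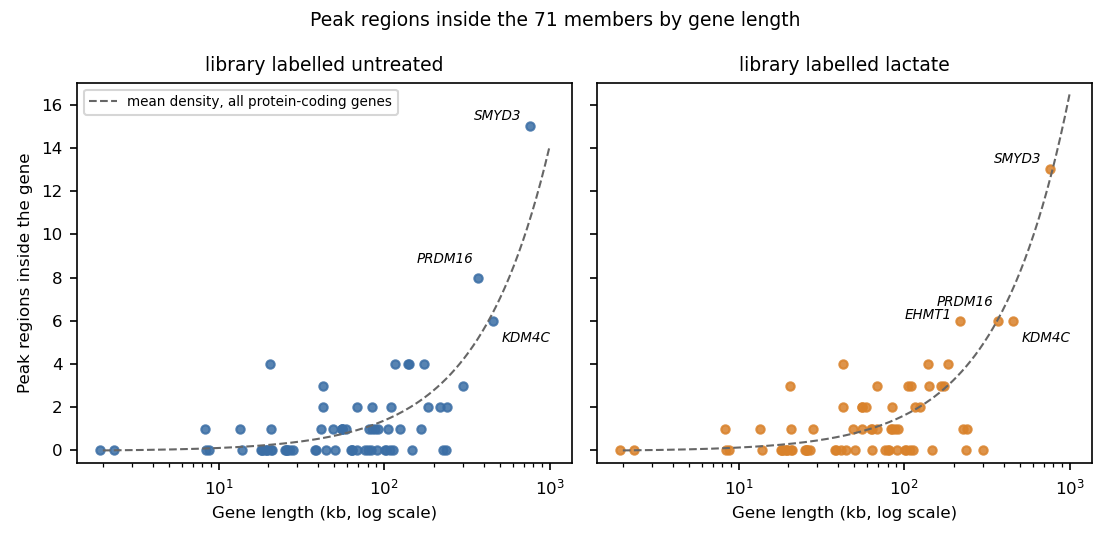
Number of peak regions inside each of the 71 members (y axis) against gene length (x axis, kb, log scale), 1 panel a library. Points are genes, and the dashed line is the mean density over all protein-coding genes, 1.41 and 1.65 regions per 100 kb. Most members lie near the line, with SMYD3 at 15 and 13 regions.

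Genes for partners of these enzymes, which are not members, were also examined at their ends. Of 51 genes for complex subunits and related proteins, 33 and 37 were marked (64.7% and 72.5%, beside 43.7% and 49.7% of all genes). In both libraries 29 were marked (56.9%, beside 39.9%). In the lactate-labelled library alone there were 8 (15.7%, interval 7.02 to 28.6, beside 9.73%). In the untreated-labelled library alone there were 4 (7.84%, interval 2.18 to 18.9, beside 3.75%). These intervals include the shares of all genes. The highest fold enrichments in the untreated-labelled library were at KANSL1 (9.77), the HP1 genes CBX5 (8.38) and CBX3 (7.90), and TRIM28 (7.77), the KAP1 gene. In the lactate-labelled library they were at RBBP5 (13.4), a core COMPASS subunit gene, CBX5 (11.1), KANSL1 (9.01) and CBX3 (8.39). Those in the lactate-labelled library alone were MTF2, PHF19 and RBBP7, all of PRC2, the COMPASS genes WDR82, CXXC1 and HCFC1, and SETMAR and SMYD5. MECOM, MLLT3, RCOR1, a cofactor of LSD1, and PAGR1 were marked in the untreated-labelled library alone, MECOM by a region that overlapped one of the other list outside the window. WDR5, which serves all COMPASS complexes, had no region at an end or inside.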

How the data were processed

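The 2 CUT&Tag libraries were compared through the authors' peak lists, 1 a library. The submitters' processing notes name hg38 and the tools MACS2 2.1.0, BWA and fastp 0.20.0. MACS version 2.1.0.20150420 called the peaks of each library by itself, per the file headers, with no control, q 0.05, a shift of -100 bp and an extension of 200 bp. In the deposited lists pileup is the signal, a number of tags over the summit that is not adjusted to library size. The deposited fold enrichment is a ratio, of pileup to local background with 1 added to each.

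Summits that share a region were collapsed to the one of highest fold. Local background and −log10 p (Poisson) were recomputed from the authors' pileup and fold. Genes came from RefSeq for GRCh38.p14, and strands and starts from its promoter table. The members, the gene lists and the partner list were chosen with earlier results of these data known. By the rule for named genes every member could be named. Full values were given for members marked in 1 library alone, the 8 of highest gene-end fold and the 6 with most inner regions in each library. Of the partners, those in 1 library alone and the 4 of highest fold in each library were named. Of the printed promoters, those of SETDB2, ASH1L and EZH2 were chosen after their values were seen. The values of 1 member are not reported here, though the counts include it.

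The marked genes, 8724 and 9918, were the same in number when counted with bedtools 2.31.1, and the counting was tested on simulated data. Intervals are exact (Clopper-Pearson for shares, conditional binomial for ratios). Python 3.11.15, pandas 2.3.3, SciPy 1.17.1 and matplotlib 3.10.9 were used. Alternatives changed the peak threshold, list length, window, overlap rule, members and gene starts.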

Additional observations from a re-analysis of the deposited data

How the results depend on the processing

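Of 105 alternatives to 13 counts and shares, 81 stayed within 1.5 times the reported count, or for shares within their interval, and 24 moved. At a fold enrichment of 5 or more, members marked were 23 (untreated-labelled, 32.4%, beside 23.4% of all genes) and 30 (lactate-labelled, 42.3%, beside 30.4%). Marked in both were 19 (26.8%, beside 19.8%). Inside members 33 and 37 regions were then left, in 19 and 22 members (26.8% and 31.0%, beside 19.6% and 25.2% of all genes), or 0.502 and 0.562 per 100 kb (beside 0.505 and 0.727). At −log10 p of 7 or more, 48 and 57 regions lay inside members, 0.730 and 0.866 per 100 kb (beside 0.794 and 1.05). With equal lists the lactate-labelled library marked 28 members (39.4%, beside 28.9% of all genes), and 21 were marked in both (29.6%, beside 21.6%). There were 7 in the lactate-labelled library alone (9.86%, beside 7.31%) and 7 in the untreated-labelled library alone (9.86%, beside 5.82%). Inside members equal lists left 43 and 37 regions, 0.654 and 0.562 per 100 kb (beside 0.65 and 0.66). In the lactate-labelled library 22 members then held one (31.0%, beside 23.6% of all genes). At member ends 67.7% of untreated-labelled regions overlapped the other list, and the matching share over all gene-end regions is not given here. These settings leave fewer peaks by construction. With no untreated-labelled region allowed within 5 kb of an end, members in the lactate-labelled library alone were 6 (8.45%, beside 6.53% of all genes). Leaving out the readthrough gene and counting any annotated start were chosen after seeing the data and moved none of the counts they gave. No paired analysis was possible because each group has 1 library. Counts under 6 tags were not called at this depth.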
